A study of Mus musculus with 4 samples.

Results

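The epithelial keratin and cadherin genes described here are *Krt7*, *Krt8*, *Krt18*, *Krt19*, *Epcam*, *Cdh1*, *Cdh2* and *Cdh5*, together with *Vim* and *Nes*, genes whose products separate epithelial from mesenchymal, endothelial and progenitor-like cells. Their rows were found by gene symbol, and all 10 of them were among the 31053 genes counted in the 4 single-cell libraries. Keratins are intermediate filament proteins of epithelial cells that pair a type II partner (*Krt7*, *Krt8*) with a type I partner (*Krt18*, *Krt19*), so that simple epithelia usually hold KRT8 together with KRT18. *Epcam* encodes an adhesion protein of epithelial and germ cells, and the classical cadherins encoded by *Cdh1* (E-cadherin), *Cdh2* (N-cadherin) and *Cdh5* (VE-cadherin) join epithelial, Sertoli or neural, and endothelial cells, respectively, to neighbours of the same kind. *Vim* (vimentin) and *Nes* (nestin) encode intermediate filaments of mesenchymal, Sertoli, vascular and progenitor cells. The rete testis (RT) is the epithelial chamber that collects fluid and sperm from the seminiferous tubules, the Sertoli valve (SV) is the tubule segment that opens into it, and Sertoli cells are the columnar somatic cells that hold the germ cells.

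Testes of C57BL/6 mice were taken at postnatal day 14, and the part with the RT and the tubules next to it was dissociated for droplet capture with a 10x Genomics 3' kit, 3 pups pooled per library. There were 2 control and 2 *Sox17*-cKO libraries, the latter from SF1Cre:Sox17flox/flox mice, in which Cre under *Nr5a1* (SF1) sequences recombines floxed *Sox17* in somatic cells of the gonad. The sample records give the genotype of the controls as SF1Cre, whereas the methods describe floxed littermates without Cre, and the records name the v3 kit where the methods name a later one. A replicate is a pool of pups, so the spread between libraries covers pooled animals and processing together.

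Of 46001 barcodes, 22567 had 1000 to 4500 detected genes and were retained, 5174 to 6135 per library, with medians of 5040 to 7872 unique molecular identifiers (UMIs, each marking 1 captured RNA molecule). They were clustered without the 10 genes and without 104 related genes, and each cluster was named from marker genes that include none of these. The class called RT-like held 227 cells (36 and 74 in controls 1 and 2, 33 and 84 in *Sox17*-cKO 1 and 2), and its 5 RT markers summed to 4660 to 5461 counts per 1e6 UMIs of the class (CPM), against 9.24 to 15.4 CPM in the SV Sertoli-like class (224 cells) and 3.08 to 5.96 CPM in the other Sertoli-like cells (5191 cells). *Amh*, a Sertoli hormone gene, had 0 UMIs in RT-like cells. The 13 SV markers were not particular to the SV Sertoli-like class, since they summed to 1866 to 3200 CPM in RT-like cells, 3032 to 3550 CPM in SV Sertoli-like cells and 225 to 350 CPM in the other Sertoli-like cells. Germ-like cells numbered 6980, of which 3746 were spermatogonium-like and 1824 spermatocyte-like, and the class of macrophage-like cells (296), which should lack keratins, served as a background for shares of cells. The targeted gene *Sox17* stood at 356 and 310 CPM (94 and 180 UMIs) in control RT-like cells and at 45.5 and 34.8 CPM (11 and 23 UMIs) in *Sox17*-cKO. Each pair of libraries shared 20 to 43 barcode sequences, at most 0.391% of the smaller library.

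Class comparisons were made on UMIs summed per library and class with edgeR's quasi-likelihood test, with the library as a block and Benjamini-Hochberg adjustment over all genes tested. A log2 fold change is that of the first class named over the second, and a gene is called at an adjusted p below 0.05. Genes with low counts in both classes were filtered out before testing. A gene near 0 in a class can pass this filter only through the other class, so its direction follows from the filter. Tallies of tested genes and medians over them are therefore descriptions. Levels in CPM count molecules at the 3' end of transcripts, 1 per captured molecule, so transcript length does not enter them, although capture can differ between genes.

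*Krt8* and *Krt18* were the highest of the 4 keratin members in RT-like cells. *Krt8*, which encodes the type II keratin of simple epithelia, stood at 94.6 and 112 CPM in control RT-like cells and at 137 and 186 CPM in *Sox17*-cKO. *Krt18*, its type I partner, stood at 64.3 and 67.1 CPM in control and at 82.7 and 71.2 CPM in *Sox17*-cKO RT-like cells. In the other Sertoli-like cells *Krt8* lay between 0.0932 and 0.526 CPM and *Krt18* between 0.0932 and 0.424 CPM in the 4 libraries, so the RT-like libraries lay far above all Sertoli-like libraries for both. The 2 genes are neighbours on chromosome 15 in GRCm38, *Krt8* on the minus strand (chr15:101996698-102004482) and *Krt18* on the plus strand (chr15:102028180-102032027), 23697 bases apart head to head. Their promoters are shown because both genes share the RT-like level, and that of *Epcam* because its level crossed class borders differently. The windows run from 250 bases before to 50 bases after the RefSeq start site in GRCm38.p6, on the coding strand, with each E-box (CAGGTG, or CACCTG on the other strand) in capitals:
Krt8, chr15:102004293-102004592, minus strand: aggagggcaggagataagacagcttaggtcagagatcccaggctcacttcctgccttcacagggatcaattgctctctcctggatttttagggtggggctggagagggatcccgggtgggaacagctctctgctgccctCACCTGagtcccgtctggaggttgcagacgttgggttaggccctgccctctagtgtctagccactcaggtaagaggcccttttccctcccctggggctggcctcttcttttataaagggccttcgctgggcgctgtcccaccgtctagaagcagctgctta
Krt18, chr15:102027966-102028265, plus strand: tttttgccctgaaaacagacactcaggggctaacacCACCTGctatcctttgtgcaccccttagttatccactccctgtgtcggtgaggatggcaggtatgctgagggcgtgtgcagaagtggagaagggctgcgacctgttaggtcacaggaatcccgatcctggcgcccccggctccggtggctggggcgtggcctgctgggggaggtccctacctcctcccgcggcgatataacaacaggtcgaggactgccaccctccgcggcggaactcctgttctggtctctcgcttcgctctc
Epcam, chr17:87635729-87636028, plus strand: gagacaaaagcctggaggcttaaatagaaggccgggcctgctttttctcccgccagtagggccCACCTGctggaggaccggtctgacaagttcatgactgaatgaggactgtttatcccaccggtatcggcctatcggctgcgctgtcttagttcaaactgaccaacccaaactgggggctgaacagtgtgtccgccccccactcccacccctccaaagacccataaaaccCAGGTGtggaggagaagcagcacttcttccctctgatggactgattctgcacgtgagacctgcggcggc
The E-box is the sequence bound by the repressors SNAI1, SNAI2, ZEB1 and ZEB2. It lay 111 bases before the start site in *Krt8*, 214 before it in *Krt18*, and 187 and 19 before it in *Epcam*. Among the 10 genes, 6 had a promoter in the RefSeq set used (*Krt7*, *Krt8*, *Krt18*, *Epcam*, *Vim* and *Nes*), and the motif occurred in 4 of these 6, against 20% of 27025 promoters of the same length. The SOX core (ATTGT, or ACAAT on the other strand) occurred in 1 of the 6 (*Nes*), against 31.6% of all promoters. These are matches of letters and not measured sites.

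*Krt7* and *Krt19*, keratins of ducts and of the mesothelium, were low in RT-like cells. *Krt19* had 11 UMIs there (3.78 and 3.44 CPM in the control, 4.14 and 10.6 CPM in the *Sox17*-cKO libraries), and *Krt7* had 8 UMIs, all in control 2 and *Sox17*-cKO 2. The class with the highest level of both was the 17 mesothelial-like cells, whose named markers lie on the testis surface. There *Krt19* stood at 1250.3, 525, 1134 and 908 CPM and *Krt7* at 834, 886, 302 and 872 CPM, controls first, from 2, 9, 3 and 3 cells. *Krt8* was also present in the mesothelial-like cells, at a mean of 145 CPM (SD 121, n = 4) against 132 CPM (SD 39.9) in RT-like cells, values that did not differ beyond their spread, while *Cdh1* and *Epcam* had 0 UMIs in them, which allows up to 32.8 CPM in the deepest of these libraries.

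**Figure D1:**
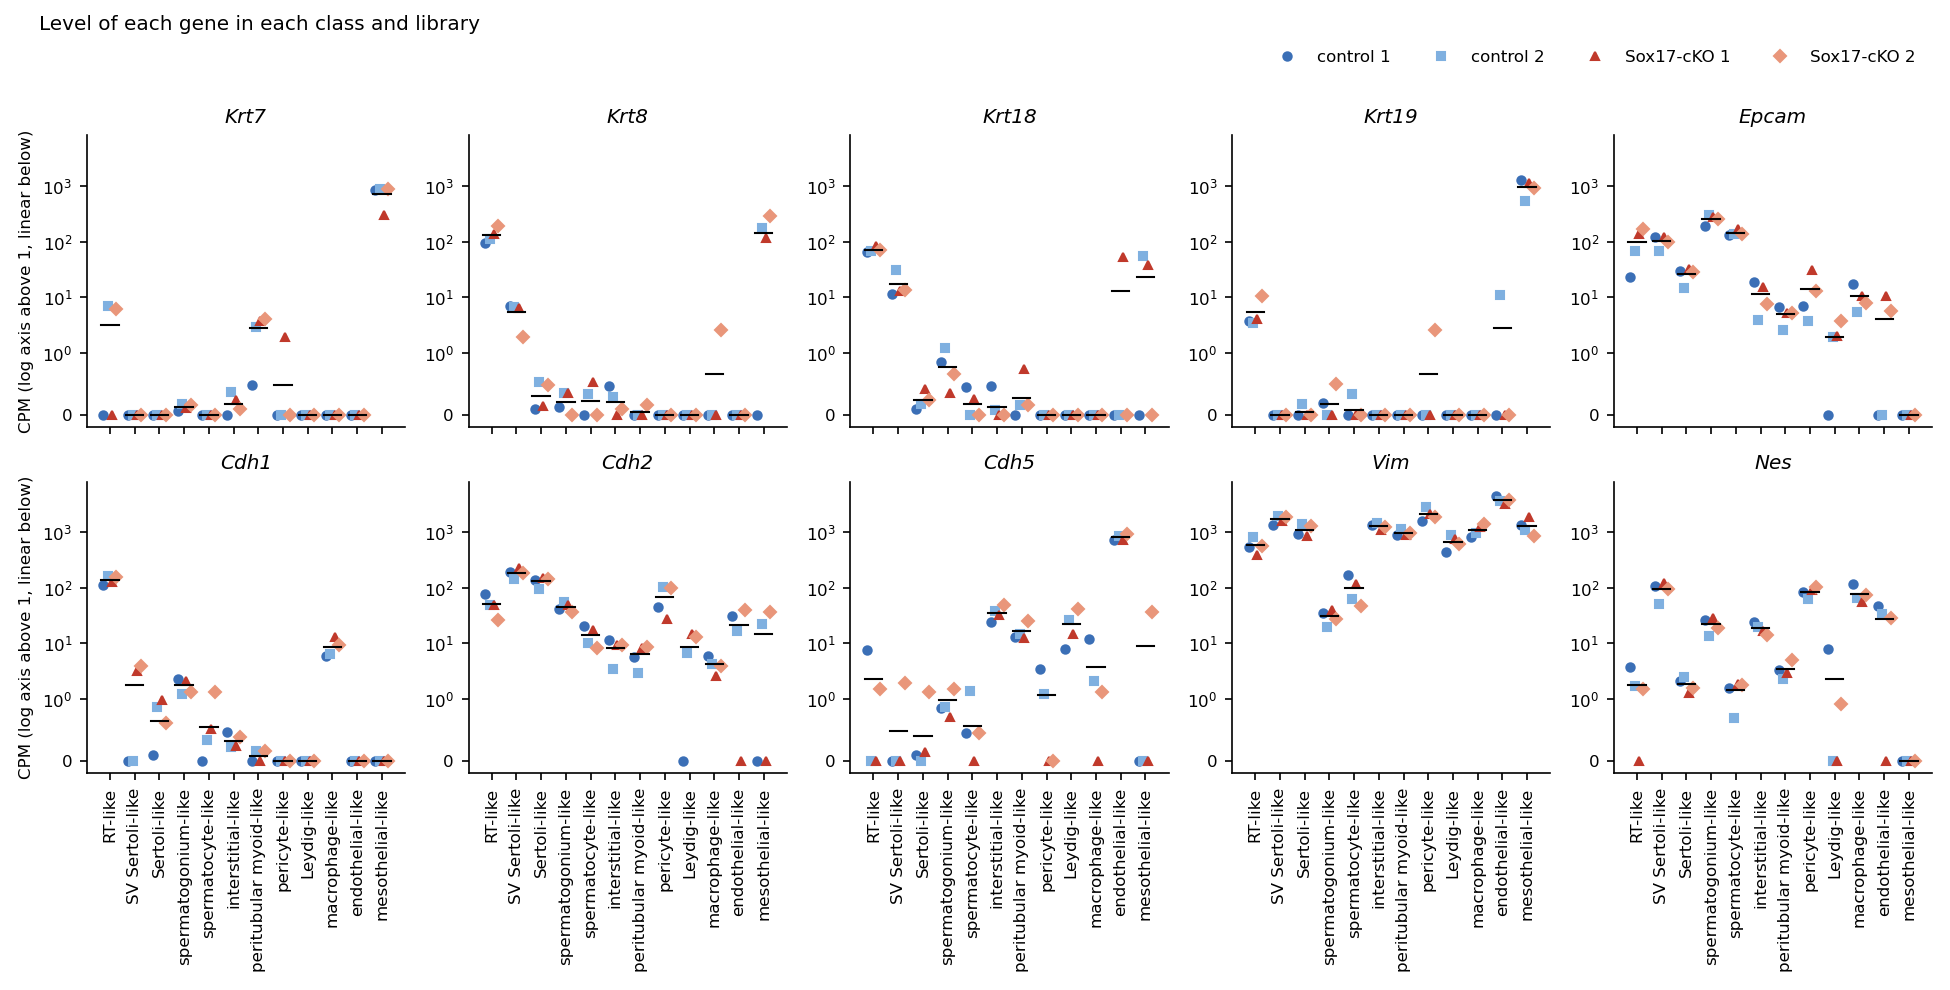
Level of each of the 10 genes in 12 classes, in CPM on an axis that is logarithmic above 1 and linear below. Each symbol is 1 library and each bar the mean of the 4 libraries. *Krt8*, *Krt18* and *Cdh1* are high in the RT-like class, *Krt7* and *Krt19* in the mesothelial-like class, *Cdh5* in the endothelial-like class, and *Epcam* in germ-like, SV Sertoli-like and RT-like classes.

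Of *Cdh1*, *Cdh2* and *Cdh5*, only *Cdh1* had its highest mean in the RT-like class. It stood at 113 and 162 CPM in control and 128 and 154 CPM in *Sox17*-cKO RT-like cells, and the next class in order was the macrophage-like cells at 5.88, 6.39, 13.1 and 9.16 CPM. *Cdh1* in macrophages was seen in 13 of 296 cells (4.39%, 95% exact binomial interval 2.36 to 7.39), more than in any Sertoli-like library (at most 0.539%). *Cdh5*, the endothelial cadherin, stood at 723, 849, 705 and 909 CPM in the 71 endothelial-like cells and had 3 UMIs in RT-like cells. The 9 endothelial markers together, none of them at 0, summed to 526 and 504 CPM in control and 397 and 304 CPM in *Sox17*-cKO RT-like cells, against 8.20 to 15.0 CPM in Sertoli-like and 6752 to 7907 CPM in endothelial-like cells. Among them *Pecam1* had 1 UMI in RT-like cells.

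*Cdh2* and *Vim* were both lower in RT-like cells than in the Sertoli-like class as a whole, unlike *Cdh1*. *Cdh2* was highest in SV Sertoli-like (192, 139.8, 221 and 185 CPM) and other Sertoli-like cells (136, 93.8, 149.8 and 141 CPM), and stood at 75.6, 48.2, 49.6 and 25.7 CPM in RT-like cells. The Sertoli-like class joined 2 clusters that were unequal in *Cdh2*, cluster 1 (2652 cells) at a mean of 163 CPM (SD 28.8, n = 4) and cluster 2 (2539 cells) at 52.2 CPM (SD 14.7), at median depths of 8444.5 and 2699 UMIs per cell. *Vim* had the highest mean of the 10 genes in each of the 10 somatic classes and was lowest in spermatogonium-like cells at a mean of 30.4 CPM (SD 8.77, n = 4). In RT-like cells *Vim* stood at 545, 807, 381 and 568 CPM, so these cells carried *Krt8*, *Krt18* and *Vim* transcripts together. *Nes* was highest in SV Sertoli-like cells, pericyte-like cells and macrophage-like cells (means of 93.9, 84.5 and 78.0 CPM with SDs of 30.6, 17.2 and 27.4), 3 neighbours in the order that did not differ beyond their spread, and had 3 UMIs in RT-like cells.

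RT-like cells were compared with Sertoli-like cells to ask how the epithelium of the RT differs from the lining of the tubules. Of the 10 genes, 6 passed the filter on low counts and all 6 were called, 4 higher and 2 lower, in a comparison in which edgeR called 53.8% of 11373 genes. *Krt8*, *Krt18* and *Cdh1*, at means of 0.312, 0.234 and 0.642 CPM in Sertoli-like cells, passed it only through the RT-like class. Only the higher direction was open to them. *Krt8* was higher by a log2 fold change of 8.47 (SE 0.31, adjusted p = 2.8e-15), *Krt18* by 7.93 (SE 0.41, adjusted p = 9.4e-13) and *Cdh1* by 7.60 (SE 0.29, adjusted p = 7.1e-15) with edgeR, each in 4 of 4 libraries. *Epcam* was higher by 1.74 (SE 0.26, adjusted p = 9.7e-06 with edgeR) and in 3 of 4 libraries, because control 1 had 22.7 CPM in RT-like and 29.4 CPM in Sertoli-like cells. *Cdh2* fell by 1.68 (SE 0.21) and *Vim* fell by 1.18 (SE 0.14) on the log2 scale, each lower in 4 of 4 libraries. The RT-like *Cdh2* values overlapped those of Sertoli-like cluster 2 (59.3, 31.0, 64.4 and 54.1 CPM), so the fall in *Cdh2* held for the class and against cluster 1, whereas *Vim* was at 882 to 1534 CPM in cluster 2, above every RT-like library. *Krt18*, with 7 UMIs in Sertoli-like cells, moved to 5.89 without integration and 6.86 under 10% mitochondrial UMIs, *Krt8* to 7.71 without integration and *Cdh1* to 8.31 with the members kept in clustering, all still called. The median over the 6 was 4.67, against -0.10 over all genes tested, and it depends on which genes passed the filter. Of the 4 genes not tested, *Krt7* had 8 UMIs, in 6 cells, against 0. Its ratio was 48.4 with 3 counts put in place of the 0 and the 8 UMIs taken as exact, which is not a lower limit. *Krt19* had 11 against 1 (ratio 200, interval 29.0 to 8589 for counting error only), and *Cdh5* and *Nes* had 3 UMIs each in RT-like cells.

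Of the related genes, the desmosome genes that were tested were higher in the same comparison, and catenins went both ways or were not called. Of 14 desmosome genes, which anchor keratin filaments at cell contacts, 5 were tested and all 5 were higher in RT-like cells, among them *Dsp* (desmoplakin) at 186 ± 76.2 CPM (SD, n = 4) against 0.315 ± 0.145 CPM, *Dsg2* at 29.9 ± 9.42 against 0.349 ± 0.209 CPM, and *Perp* at 39.7 ± 32.0 against 0.929 ± 0.792 CPM. Both other cadherins tested of 19 listed were higher, *Cdh16*, a cadherin of kidney and duct epithelium, by 9.001 (SE 0.46) and *Cdh3* (P-cadherin) by 3.82 (SE 0.64). Both epithelial regulators tested of 12 listed were higher, the ETS factor genes *Elf3* by 7.76 (SE 0.48) and *Ehf* by 6.80 (SE 0.68). *Dsp*, *Dsg2*, *Perp*, *Cdh16*, *Cdh3*, *Elf3* and *Ehf* had means of 0.089 to 0.929 CPM in Sertoli-like cells. They passed the filter on low counts only through the RT-like class, so only the higher direction was open to them. Listed genes that failed the filter count neither way. Both repressor genes tested of 7 listed were lower, *Zeb1* by -0.77 (SE 0.25) in 4 of 4 libraries and *Zeb2* by -0.64 (SE 0.19) in 3 of 4. *Lmna* (lamin A/C) was higher by 4.52 (SE 0.27), and *Synm* (synemin), an intermediate filament gene, was lower by -1.96 (SE 0.30). Of 9 listed genes of epithelial surface and protease control, *Lsr*, a gene of tricellular junctions, was lower by -1.41 (SE 0.17). *Prss8* of the same list was higher by 6.44 (SE 0.68), at 15.0 against 0.112 CPM, and passed the filter only through the RT-like class. Of 22 other keratins 2 were tested. *Krt10*, a keratin of stratified epithelium, was higher in RT-like cells by 1.59 (SE 0.28), at 33.0 ± 6.01 CPM (SD, n = 4) against 9.71 ± 2.401 CPM, and *Krt79* was lower by -2.75 (SE 0.50). Among catenins, 2 of 7 were higher, 1 was lower and 4 were not called. Markers of germ cells were present in RT-like cells at 340, 80.9, 410 and 191 CPM in summed level, with 1 of 8 at 0, against 486, 167, 589 and 227 CPM in Sertoli-like cells. The 6 markers of efferent duct and ciliated epithelium, 2 of them at 0 in RT-like cells, summed to 148, 70.6, 128 and 95.4 CPM there against 2.57 to 4.21 CPM in Sertoli-like cells, and their part in these results was not tested.

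**Figure D2:**
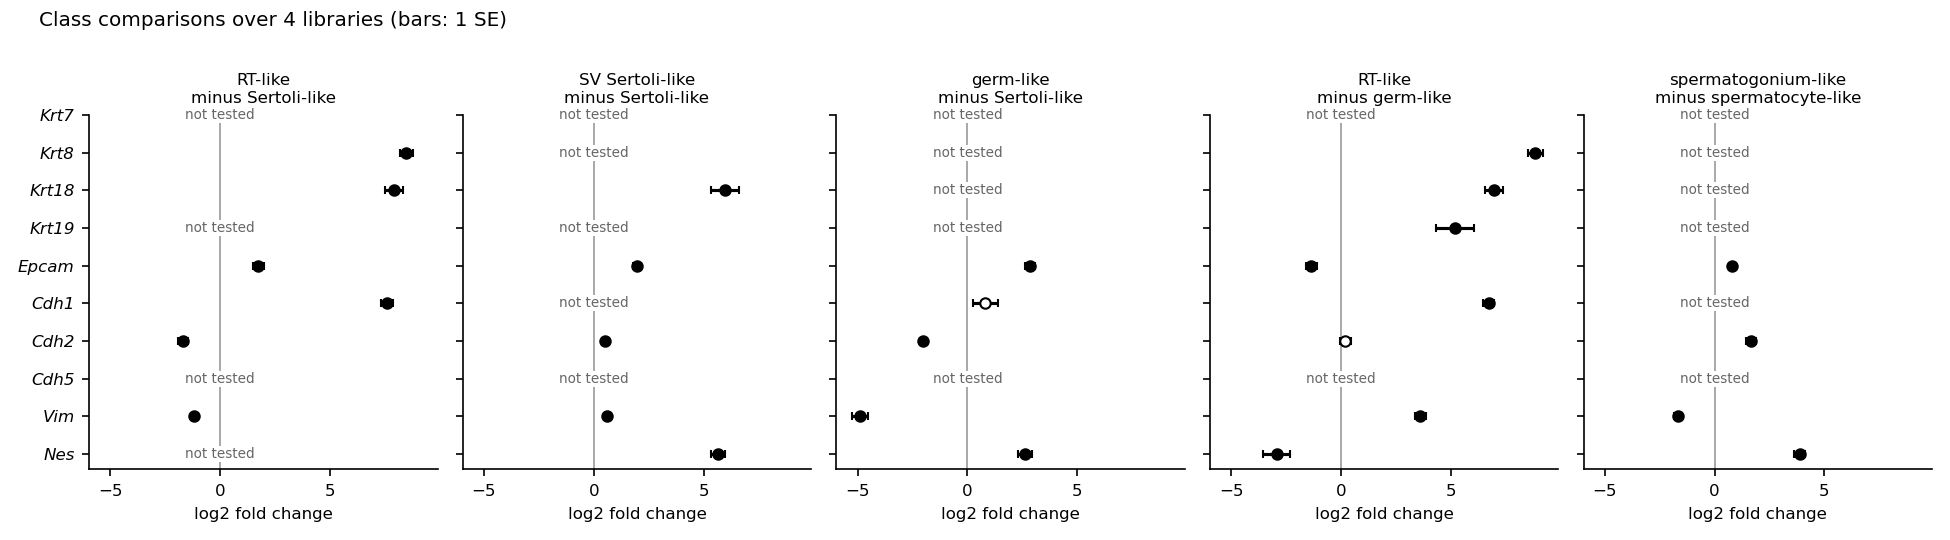
Log2 fold change of each gene in 5 class comparisons by edgeR over the 4 libraries, with bars of 1 SE. Filled points passed an adjusted p of 0.05, open points did not, and genes under the filter on low counts are written as not tested. *Krt8*, *Krt18* and *Cdh1* lie far to the right in RT-like against Sertoli-like cells, and *Krt18* and *Nes* in SV Sertoli-like cells.

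Within the RT-like class, each epithelial transcript was seen in part of the cells, and cells that held more of them were deeper. *Cdh1* was detected in 118 of 227 cells (52.0%), *Krt8* in 104 (45.8%), *Epcam* in 98 (43.2%) and *Krt18* in 80 (35.2%), at library medians of 6543 to 7966 UMIs. The share for *Epcam* differed between libraries, at 16.7% and 31.1% in control and 54.5% and 60.7% in *Sox17*-cKO, while those for *Cdh1* ran from 48.5% to 56.0%, for *Krt8* from 36.5% to 58.3% and for *Krt18* from 27.3% to 40.5%. The corresponding shares in macrophage-like cells, at medians of 4744 to 8278 UMIs, were 4.39%, 0.676%, 5.41% and 0 of 296, the last of which has an upper limit of 1.24%. After every cell was thinned to 2000 UMIs, which left out 7 RT-like cells, the shares were 19.5% for *Cdh1*, 20.9% for *Krt8*, 17.3% for *Epcam* and 12.3% for *Krt18*. Of *Cdh1*, *Krt8*, *Krt18* and *Epcam*, 36 cells held none, 64 held 1, 63 held 2, 46 held 3 and 18 held all 4, and the median depth of these cells was 3621, 6687, 8543, 9187 and 10500 UMIs in the same order. *Krt8* and *Krt18* were found together in 54 cells, against 36.7 cells as the product of their shares, and *Krt8* and *Cdh1* together in 53 against 54.1, counts that differences in depth between cells also enter. The counts were uneven among cells. The 23 cells with the most *Krt8* held 52.0% of its UMIs, and 123 cells held 0.

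For 9 of the 10 genes, all but *Vim*, most UMIs lay outside the retained cells. Barcodes with more than 4500 genes, which the gene range removed, carried 85.4% of all *Krt8* UMIs, 83.3% of *Krt18*, 81.8% of *Cdh1* and 63.0% of *Epcam*, against 53.5% to 58.9% of all UMIs per library. In a description added after the data were seen, barcodes above the range with at least 2000 CPM of the 5 RT markers were collected. There were 240 of them (26 and 118 in the controls, 10 and 86 in *Sox17*-cKO), with 10045765 UMIs in all against 1747466 in the RT-like class. In these deep barcodes *Cdh1* was detected in 93.3%, *Krt8* in 86.3%, *Epcam* in 83.8%, *Krt18* in 83.3%, *Cdh2* in 72.9% and *Vim* in all 240, and 154 (64.2%) held all 4 of *Krt8*, *Krt18*, *Cdh1* and *Epcam*. Their levels were of the size seen in RT-like cells, for example *Cdh1* at 115, 153, 117 and 162 CPM. Sertoli markers summed to 2798, 2550, 4408 and 3948 CPM in them, against 2795, 2164, 3107 and 2963 CPM in RT-like cells, and Scrublet called 6 of them, all in control 2 and *Sox17*-cKO 2, since it made no call in the other libraries. Whether some of these barcodes hold more than 1 cell was not tested.

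**Figure D3:**
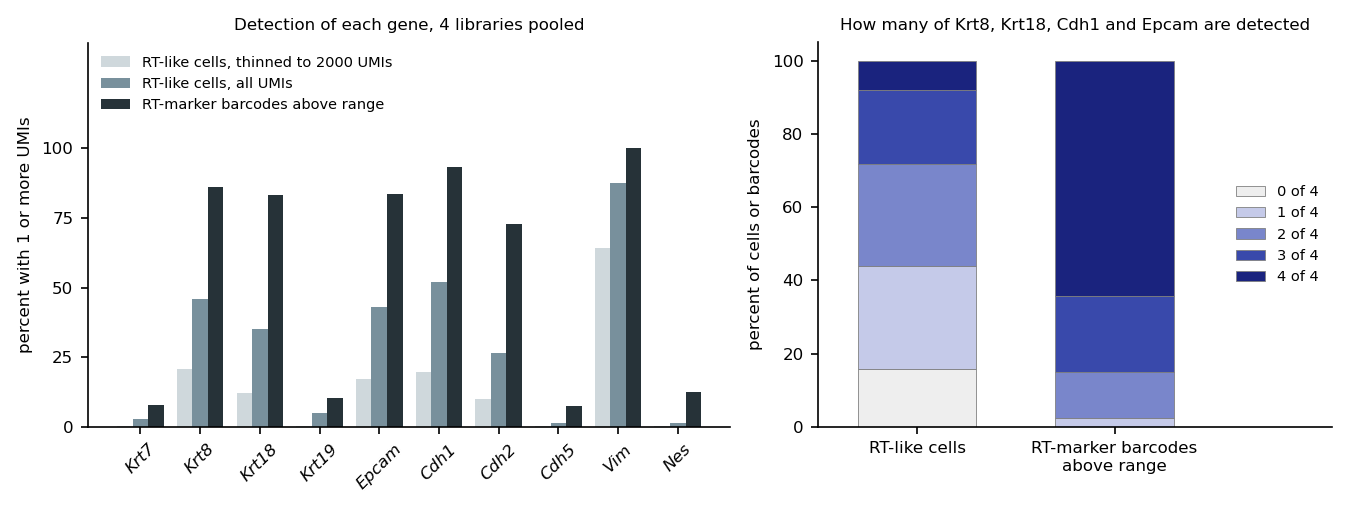
Left, percent of RT-like cells or of RT-marker barcodes above the gene range with at least 1 UMI of each gene, for RT-like cells also after thinning to 2000 UMIs. Right, percent of cells or barcodes that hold 0 to 4 of *Krt8*, *Krt18*, *Cdh1* and *Epcam*. All 4 are found in 18 of 227 RT-like cells and in 154 of 240 deep barcodes.

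SV Sertoli-like cells were compared with the other Sertoli-like cells to ask whether the valve segment carries part of the RT pattern. All 5 genes tested were higher, in a comparison in which edgeR called 28.7% of 10529 genes. *Krt18* and *Nes*, at means of 0.234 and 1.865 CPM in the other Sertoli-like cells, passed the filter only through the SV Sertoli-like class. Only the higher direction was open to them. *Nes* was higher by 5.66 (SE 0.31, adjusted p = 1.3e-16), *Krt18* by 5.98 (SE 0.64, adjusted p = 2.6e-09) and *Epcam* by 1.97 (SE 0.17, adjusted p = 1.1e-11) with edgeR, each in 4 of 4 libraries with no overlap. *Nes* stood at 109, 51.2, 122 and 94.2 CPM in SV Sertoli-like cells and at 2.14, 2.46, 1.27 and 1.59 CPM in the others. *Krt18* stood at 11.5, 30.7, 12.8 and 13.5 CPM, well below the RT-like level and above every other Sertoli-like library. *Epcam* stood at 120.1, 68.2, 118 and 98.1 CPM against 29.4, 14.4, 32.5 and 28.1 CPM. Germ markers, all 8 detected, summed to 300.2, 71.6, 508 and 242 CPM in SV Sertoli-like and 486, 167, 589 and 227 CPM in the other Sertoli-like cells, higher in SV Sertoli-like cells in 1 of 4 libraries. *Vim* (0.62, SE 0.08) and *Cdh2* (0.51, SE 0.11) were higher in 4 of 4 libraries with overlapping ranges, *Cdh2* at a mean of 184 CPM against 163 CPM in Sertoli-like cluster 1 and 52.2 CPM in cluster 2, and neither was called without the library block. The median over the 5 was 1.97, against -0.04 over all genes tested, and it depends on which genes passed the filter.

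The keratin pair was unequal in the SV Sertoli-like cells. *Krt18* had 25 UMIs in 17 of 224 cells and *Krt8* had 8 UMIs in 5 cells, a ratio of *Krt8* to *Krt18* of 0.32 (95% exact interval 0.125 to 0.732, counting error only), whereas it was 2.00 (1.60 to 2.50) in RT-like cells. *Cdh1* had 3 UMIs, a ratio to *Krt18* of 0.12 (0.0232 to 0.393) against 2.09 (1.68 to 2.61) in RT-like cells. The 17 cells with a *Krt18* UMI held 2 UMIs of the RT markers in all, and the 207 without held 17, too few to compare. *Krt8* itself was not tested by edgeR for low counts. It had 8 UMIs in SV Sertoli-like and 9 in the other Sertoli-like cells, a ratio of 18.1 in CPM (interval 6.07 to 52.8). *Krt7* and *Krt19* had 0 UMIs in SV Sertoli-like cells and *Cdh5* had 1. Among related genes, *Lmna* was higher by 4.27 (SE 0.25), *Des* (desmin), a muscle filament gene, by 5.05 (SE 0.64), *Cdh19* by 3.68 (SE 0.49) and *Pkp2* (plakophilin 2, a desmosome gene) by 2.33 (SE 0.51). *Des*, *Cdh19* and *Pkp2* had means of 0.482, 1.46 and 2.46 CPM in the other Sertoli-like cells. They passed the filter only through the SV Sertoli-like class, so only the higher direction was open to them. No gene of the epithelial regulator list passed the filter on low counts. *Krt79* (1.24, SE 0.27, at a mean of 36.5 CPM) and the repressor gene *Zeb2* (0.69, SE 0.13) were higher in SV Sertoli-like cells, whereas both were lower in RT-like than in Sertoli-like cells. Smooth muscle markers of peritubular cells, all 6 detected, summed to 346 to 437 CPM in SV Sertoli-like and 117 to 329 CPM in the other Sertoli-like cells, and 5 Leydig markers, 1 of them at 0, to 162 to 191 against 12.7 to 32.5 CPM, and the part of either in these results was not tested. The class depended on the clustering. It was not found without integration, and with the 10 genes and their relatives kept in clustering it grew to 1429 cells, in which *Krt18* no longer passed the filter, *Nes* was higher by 2.93 and *Epcam* by 0.63.

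Germ-like cells held *Epcam* and *Nes* and few UMIs of the 4 keratin members. Germ-like cells were compared with Sertoli-like cells because both fill the tubule. Of 5 genes tested, 4 were called, in a comparison in which edgeR called 80% of 13447 genes. *Epcam* was higher in germ-like cells by 2.85 (SE 0.23, adjusted p = 2.0e-05 with edgeR), at 186, 252, 270.5 and 228 CPM. *Nes* was higher by 2.62 (SE 0.30), at 19.6, 8.75, 17.8 and 12.1 CPM. *Vim* fell by 4.89 (SE 0.35) and *Cdh2* fell by 2.02 (SE 0.16) on the log2 scale, each lower in 4 of 4 libraries, although the *Cdh2* values (38.5, 43.1, 46.9 and 32.3 CPM) overlapped those of Sertoli-like cluster 2. Without integration the difference in *Nes* was 0.89. *Cdh1* differed by 0.82 (SE 0.57, adjusted p = 0.215 with edgeR), which did not pass the threshold. In 6980 germ-like cells *Krt8* had 15 UMIs, *Krt18* 33, *Krt7* 5, *Krt19* 7 and *Cdh5* 45. Of the other keratins, *Krt10* was higher in germ-like cells by 0.72 (SE 0.15), at 20.1 CPM, and *Krt79* was lower by -4.28 (SE 0.55). Of related genes, 6 of the 7 epithelial regulators tested were higher, among them *Esrp1*, a splicing regulator of epithelial cells, by 3.70 (SE 0.26), *Ovol2* by 4.48 (SE 0.43) and *Klf5* by 3.02 (SE 0.37). *Ovol2* and *Klf5*, at means of 0.133 and 0.738 CPM in Sertoli-like cells, passed the filter only through the germ-like class. In contrast, 6 of 7 catenin genes were lower, for instance *Ctnnd1* (p120 catenin) by -2.16 (SE 0.11). Of 6 repressor genes tested, 3 were higher, *Twist1* by 3.61 (SE 0.43), *Snai3* by 3.21 (SE 0.50) and *Snai1* by 2.60 (SE 0.47), and 2 were lower, *Zeb2* by -4.63 (SE 0.20) and *Snai2* by -2.21 (SE 0.40). *Twist1*, *Snai3* and *Snai1*, at means of 0.514, 0.401 and 0.234 CPM in Sertoli-like cells, passed the filter only through the germ-like class. *Snai2*, at 0.503 CPM in germ-like cells, passed it only through the Sertoli-like class. This tally thus depends on the filter.

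RT-like cells were also set against germ-like cells. Of 8 genes tested, 7 were called, against 65.4% of 12593 genes with edgeR. *Krt8* (8.83, SE 0.34), *Krt18* (6.97, SE 0.39), *Cdh1* (6.71, SE 0.26), *Krt19* (5.19, SE 0.85) and *Vim* (3.61, SE 0.26) were higher in RT-like cells. *Krt8*, *Krt18*, *Cdh1* and *Krt19*, at means of 0.267, 0.541, 1.27 and 0.13 CPM in germ-like cells, passed the filter only through the RT-like class. Only the higher direction was open to them. *Epcam* fell by 1.35 (SE 0.26) and *Nes* fell by 2.93 (SE 0.62) on the log2 scale, each lower in 4 of 4 libraries. *Nes*, at a mean of 1.75 CPM in RT-like cells, passed the filter only through the germ-like class, so its direction follows from the filter. *Cdh2* differed by 0.20 (SE 0.24, adjusted p = 0.486 with edgeR), less than its error. *Krt7* had 8 against 5 UMIs (ratio 53.9 in CPM, interval 15.5 to 209.3) and *Cdh5* 3 against 45. Of 8 epithelial regulators tested, 2 were higher in RT-like cells, 5 were lower and 1 was not called. *Elf3* (8.49, SE 0.55) and *Ehf* (8.24, SE 0.74) were higher in RT-like cells, whereas *Esrp1* (-5.28, SE 0.71), *Grhl1* (-3.13, SE 0.78) and *Klf5* (-2.13, SE 0.71) were lower. *Elf3* and *Ehf*, at means of 0.141 and 0.041 CPM in germ-like cells, passed the filter only through the RT-like class. *Esrp1*, *Grhl1* and *Klf5*, at means of 0.379, 1.38 and 1.84 CPM in RT-like cells, passed it only through the germ-like class. The tally thus depends on the filter.

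Among germ cells, *Epcam*, *Nes* and *Cdh2* were higher and *Vim* was lower in the spermatogonium-like class as a whole than in the spermatocyte-like class, the mitotic and meiotic stages. All 4 genes tested were called, against 74.7% of 11981 genes with edgeR. *Nes* differed by 3.88 (SE 0.25), at 26.3, 13.7, 28.2 and 19.0 CPM against 1.58, 0.686, 1.83 and 1.80 CPM. It passed the filter only through the spermatogonium-like class, so only the higher direction was open to it. *Cdh2* differed by 1.65 (SE 0.21) and *Epcam* by 0.78 (SE 0.10), the latter at 193, 299, 279 and 254 CPM against 130.2, 135, 167 and 139 CPM. *Vim* fell by 1.66 (SE 0.19) on the log2 scale. The 12 Sertoli markers, none at 0, moved with it, at 525, 214, 610 and 286 CPM in spermatogonium-like and 1813, 462, 1432 and 499 CPM in spermatocyte-like cells, and their part in the *Vim* values was not tested. Without integration *Nes* differed by 2.995 and *Cdh2* by 0.70. *Cdh1*, which marks undifferentiated spermatogonia, had 68 UMIs in spermatogonium-like and 6 in spermatocyte-like cells, a ratio of 4.30 in CPM (interval 1.88 to 12.1, counting error only). It was highest in cluster 12, whose leading genes include *Zbtb16*, *Nanos3* and *Lin28a*, at 4.64, 8.86, 8.40 and 4.28 CPM and in 30 of 574 cells. *Epcam* stood in the same cluster at a mean of 109 CPM (SD 41.5, n = 4), against 245 CPM in cluster 8 and 309 CPM in cluster 4. This overlapped the spermatocyte-like cluster 9 at 119 CPM (SD 19.4), and the mean was lower than that of the spermatocyte-like cluster 11 at 184 CPM (SD 22.7). The higher *Epcam* of the spermatogonium-like class thus did not hold for cluster 12. *Cdh2* was likewise unequal within the class, at 65.0 CPM in cluster 4, 27.9 CPM in cluster 8 and 10.5 CPM (SD 6.04) in cluster 12, the last of which overlapped clusters 9 (17.0 CPM, SD 10.8) and 11 (11.02 CPM, SD 5.77). The other members had few UMIs in spermatogonium-like against spermatocyte-like cells, *Krt18* 27 against 3, *Krt8* 7 against 3, *Krt19* 6 against 1, *Krt7* 4 against 0 and *Cdh5* 33 against 7. Of related genes, 6 of 6 epithelial regulators tested of 12 listed were higher in spermatogonium-like cells, with *Esrp1* at 32.5 ± 9.12 CPM (SD, n = 4) against 7.75 ± 2.01 CPM. This tally depends in part on the filter, since *Ovol2*, at 5.92 against 0.348 CPM, passed it only through the spermatogonium-like class. Of 5 repressor genes tested, 3 were higher as well, *Twist1* by 3.19 (SE 0.31), *Snai3* by 4.88 (SE 0.51) and *Zeb1* by 0.64 (SE 0.14), and *Zeb2* was lower by -1.24 (SE 0.38). *Twist1* and *Snai3*, at means of 1.35 and 0.179 CPM in spermatocyte-like cells, passed the filter only through the spermatogonium-like class. *Krt10* was lower by -0.85 (SE 0.14), at 18.8 against 32.9 CPM.

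**Figure D4:**
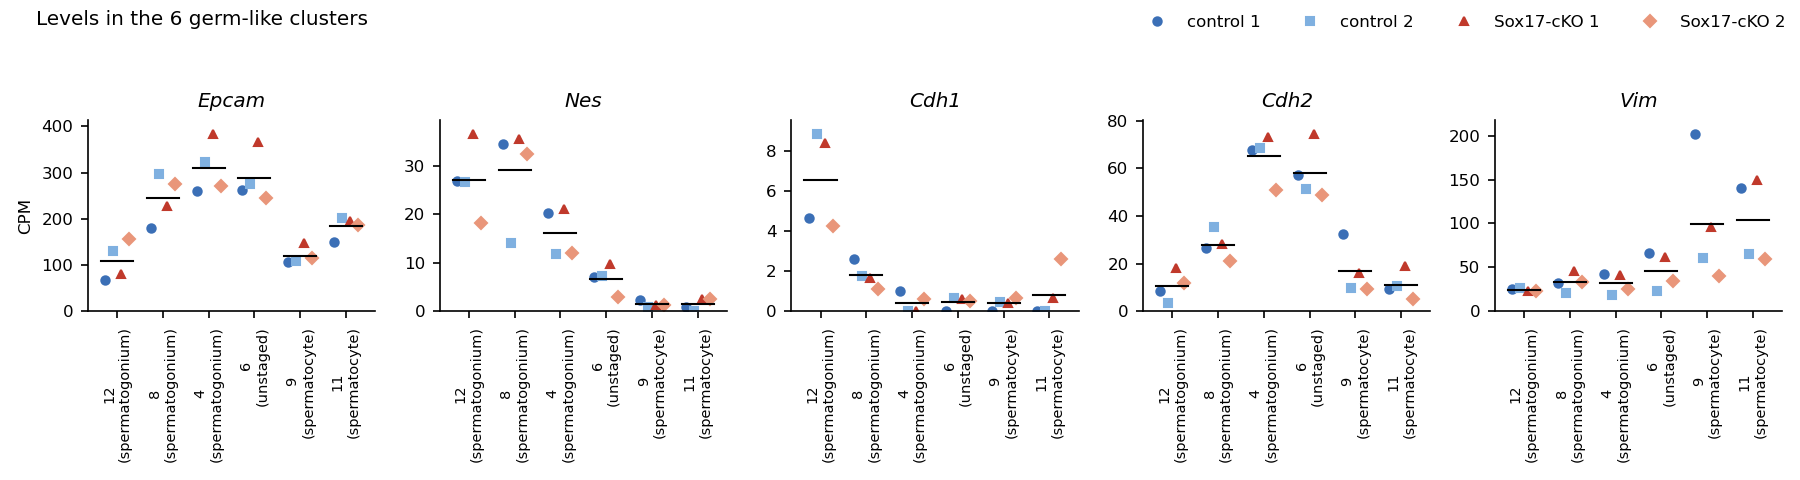
Levels of 5 genes in the 6 germ-like clusters in CPM on a linear axis. Each symbol is 1 library and each bar the mean of the 4 libraries. *Nes* and *Cdh1* are highest in the spermatogonium-like clusters 8 and 12, and *Epcam* and *Cdh2* in cluster 4 and the unstaged cluster 6.

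Control and *Sox17*-cKO libraries were compared within each class to ask whether loss of *Sox17* changed the epithelial pattern, with 2 libraries against 2. In RT-like cells none of the 6 genes tested was called in the main fit, which had no replicate block. There edgeR called 9 of 6797 genes (0.132%) and 391 had an unadjusted p below 0.05. DESeq2 called none of the 6 either, with 18 genes called in all. With the replicate number as a block, edgeR called 264 of 6797 genes, with *Epcam* the only member among them. *Epcam* had the lowest p among the 6. It stood at 22.7 and 67.1 CPM in control (6 and 39 UMIs) and at 137 and 171 CPM in *Sox17*-cKO RT-like cells (33 and 113 UMIs), without overlap. This was a log2 fold change of 1.64 (SE 0.43, adjusted p = 0.363 with edgeR). *Krt8* (0.63, SE 0.31, adjusted p = 0.933 with edgeR) and *Krt18* (0.18, SE 0.33) also did not overlap between genotypes and missed the threshold. Here and below, such a separation of 2 libraries from 2 carries little weight. An exact permutation test cannot give it a two-sided p below 0.333, and its share over all genes was not computed. *Cdh1* differed by 0.01 (SE 0.31), and *Cdh2* (-0.81, SE 0.47) and *Vim* (-0.53, SE 0.33) overlapped. *Krt19* had 8 against 3 UMIs (ratio 2.50, interval 0.5998 to 14.6), *Krt7* had 4 against 4, and *Cdh5* and *Nes* each had 1 against 2.

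The *Epcam* value depended on the libraries and the model. It was called with the replicate number as a block (adjusted p = 1.6e-05) and without the filter on low counts (0.0128) by edgeR, and not by DESeq2 (adjusted p = 0.591). Leaving a library out leaves 1 library in a genotype, so only effect sizes are given for such fits. The log2 fold change was 2.72 without control 2, 1.74 without *Sox17*-cKO 1, 1.20 without control 1 and 1.42 without *Sox17*-cKO 2. In the RT-marker barcodes above the gene range *Epcam* stood at 69.8 and 88.7 CPM in control and 256 and 186 CPM in *Sox17*-cKO, a log2 fold change of 1.47 (SE 0.29, adjusted p = 0.0879 with edgeR), in a fit that called 33 of 11336 genes (0.291%). The log2 fold change of *Epcam* there was 1.19 without *Sox17*-cKO 1, 1.73 without *Sox17*-cKO 2, 1.335 without control 1 and 1.625 without control 2. *Krt8* stood there at 83.5 and 143 CPM in control and 163 and 238 CPM in *Sox17*-cKO (0.84, SE 0.31, adjusted p = 0.496 with edgeR). With the replicate number as a block, edgeR called *Epcam* (adjusted p = 0.00102) and *Krt8* (0.0178) in these barcodes. With both sets of barcodes summed and the same block, edgeR called *Epcam* (adjusted p = 0.000107), *Krt8* (0.00742) and *Cdh2* (0.0154). Without the block, *Epcam* differed in this sum by 1.42 (SE 0.28, adjusted p = 0.0856 with edgeR), where 0.404% of 11640 genes were called. The log2 fold change of *Epcam* in this sum was 1.705 without control 2, 1.281 without *Sox17*-cKO 1, 1.561 without *Sox17*-cKO 2 and 1.211 without control 1. Without *Sox17*-cKO 1, *Cdh2* differed by -1.34 in the deep barcodes and by -1.33 with both sets summed. Without *Sox17*-cKO 2 it differed by -0.2985 and -0.3322. Germ cells hold much *Epcam*, and summed germ markers in RT-like cells were 340 and 80.9 CPM in control and 410 and 191 CPM in *Sox17*-cKO. In the deep barcodes germ markers were 307 and 67.6 CPM in control and 52.7 and 217 CPM in *Sox17*-cKO, lowest in the library with the highest *Epcam*, and their part in the *Epcam* values was not tested. The genotype difference in RT-like cells minus that in Sertoli-like cells was 1.12 (SE 0.37, adjusted p = 0.204 with edgeR) for *Epcam*, and none of the 6 genes tested passed, where 0.527% of 12517 genes did. It was -1.14 (SE 0.40, adjusted p = 0.295 with edgeR) for *Cdh2*, 0.40 for *Krt8*, -0.96 for *Krt18*, -0.81 for *Cdh1* and -0.37 for *Vim*. The difference for *Epcam* was 2.79 without control 2, a fit with 1 control library, and it was called under no alternative that kept all 4 libraries.

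**Figure D5:**
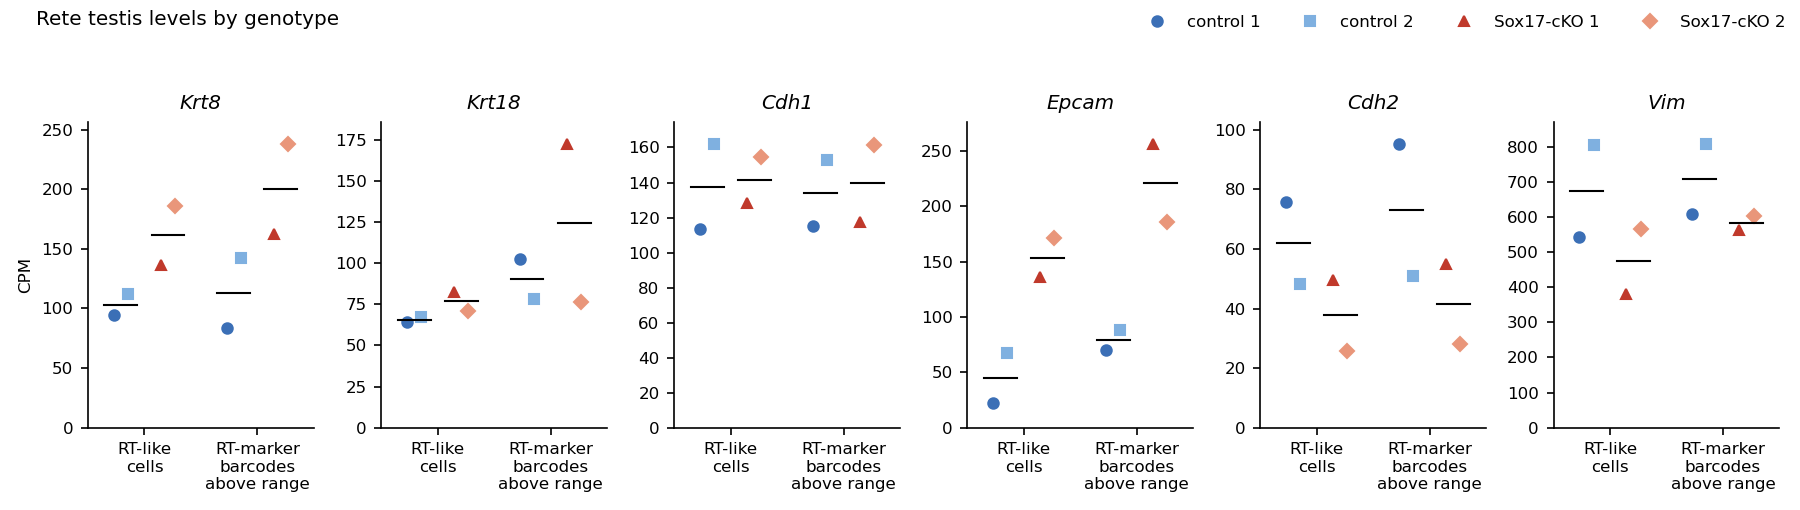
Levels of 6 genes in control and *Sox17*-cKO libraries in CPM, for RT-like cells and for RT-marker barcodes above the gene range. Each symbol is 1 library and each bar the mean of 2. For *Epcam* both *Sox17*-cKO libraries lie above both control libraries in each set, for *Cdh1* and *Cdh2* the genotypes overlap in both sets.

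Shares of RT-like cells with a UMI were compared with an exact permutation test over the 4 libraries, which cannot give a two-sided p below 0.333. At 2000 UMIs per cell *Epcam* was detected in a mean of 22.2% of cells in *Sox17*-cKO and 9.15% in control (exact permutation p = 0.333), and *Krt8* in 23.4% against 13.3% (exact permutation p = 0.667). At 4000 UMIs per cell the shares were 44.6% against 19.0% for *Epcam* and 35.9% against 33.5% for *Krt8*. After adjustment over the 10 genes every p was 1.

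Genotypes were also tested in SV Sertoli-like, Sertoli-like and germ-like cells, and none of the members tested there was called. In SV Sertoli-like cells 4 genes were tested, and edgeR called 0 of 5727 genes (0%) with 102 at an unadjusted p below 0.05, and DESeq2 called 0. *Epcam* differed by 0.12 (SE 0.37) and *Nes* by 0.34 (SE 0.39). *Cdh2* differed by 0.23 (SE 0.31) and *Vim* by 0.01 (SE 0.33). *Krt18* had 11 against 14 UMIs (ratio 0.685, interval 0.282 to 1.63), *Krt8* 3 against 5, *Cdh1* 3 against 0, *Cdh5* 1 against 0, and *Krt7* and *Krt19* had 0. In the other Sertoli-like cells 4 were tested, and edgeR called 0 of 12022 genes (0%) with 94 at an unadjusted p below 0.05, and DESeq2 called 0. *Cdh2* stood at 136 and 93.8 CPM in control and 149.8 and 141 CPM in *Sox17*-cKO, without overlap (0.22, SE 0.27), and *Vim* differed by -0.22 (SE 0.37) and *Epcam* by 0.35 (SE 0.34). *Nes* differed by -0.79 (SE 0.61), without overlap. *Cdh5* had 12 UMIs in *Sox17*-cKO against 1 in control (ratio 12.9, interval 1.91 to 552, counting error only), of which 11 were in *Sox17*-cKO 2, while *Sox17*-cKO 1 and control 1 had 1 each. *Cdh1* had 12 against 6, *Krt8* 5 against 4, *Krt18* 5 against 2, *Krt19* 0 against 1, and *Krt7* had 0. In germ-like cells 6 were tested, and edgeR called 0 of 14107 genes (0%) with 20 at an unadjusted p below 0.05, and DESeq2 called 0. *Epcam* differed there by 0.14 (SE 0.27), *Nes* by 0.04 (SE 0.42), *Cdh1* by -0.0038 (SE 0.59), *Cdh2* by -0.085 (SE 0.27), *Vim* by -0.058 (SE 0.42) and *Cdh5* by -0.20 (SE 0.75). *Krt18* had 10 against 23 UMIs (ratio 0.558, interval 0.237 to 1.22), *Krt8* 8 against 7, *Krt19* 3 against 4 and *Krt7* 3 against 2.

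Genes were ranked by how closely their levels ran with those of each member. Pearson's r of log2(CPM + 1) was taken over 47 sums of 12 classes in 4 libraries. This is a description in which the sums share libraries and depth. A sum needed at least 10 cells, so no mesothelial-like library (2, 9, 3 and 3 cells) entered. The 12 classes therefore differ from those in the plot of levels by class. The r values of *Krt8* with *Cdh1* and *Epcam* leave out the mesothelial-like cells, which held 27 *Krt8* UMIs and 0 of *Cdh1* and *Epcam*. *Krt8* was most like *Slc34a2* (r = 0.928), a phosphate transporter gene of lung and duct epithelium, and *Cdh1* was most like *Mal2* (0.904), which encodes a protein of epithelial transport. *Epcam* was most like *Slc25a33* (0.905), *Cdh2* like *Napepld* (0.855), *Cdh5* like *Hspa12b* (0.862), an endothelial gene, *Vim* like *Cmtm3* (0.954) and *Nes* like *Adamtsl5* (0.756). *Krt18* was most like *Krt8* itself (0.862). Among the members, *Krt8* and *Cdh1* had an r of 0.85 and *Krt18* and *Cdh1* of 0.67, while *Epcam* had an r of 0.31 with *Krt8*, 0.26 with *Cdh1* and -0.71 with *Vim*.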

How the data were processed

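Single-cell RNA counts of 2 control and 2 *Sox17*-cKO libraries were analysed. The authors deposited whole UMI counts per gene and barcode, not normalized, made with Cell Ranger and STAR against mm10 (GRCm38) according to the submitters' processing notes, with Cell Ranger 6.0.2 in the file headers of replicate 1 and 6.1.2 in those of replicate 2 of each genotype. Reads that match several annotated genes equally well are not counted by this tool. Cells with 1000 to 4500 genes were kept, the range stated in the study's methods. The 1% mitochondrial limit stated there was not applied, since 212 cells met it.

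Seurat 5.3.0 (R 4.3.3) was used to normalize, integrate and cluster the counts (2000 variable genes, 20 principal components, resolution 0.4), leaving out the 10 genes and 104 related genes. Clusters were named from marker lists. Scrublet, run through Scanpy 1.11.5 under Python 3.11.15, called doublets in control 2 and *Sox17*-cKO 2 but none in control 1 and *Sox17*-cKO 1. Called cells were kept. SciPy 1.17.1, NumPy 2.4.6 and pandas 2.3.3 gave the remaining statistics, and matplotlib 3.10.9 the figures. UMIs summed per library and class were compared with edgeR 4.0.16 (TMM, filterByExpr, quasi-likelihood F test, two-sided, Benjamini-Hochberg adjustment, threshold 0.05), which was tested on simulated data. The retained cells of a library held 33649565 to 42011650 UMIs, and 1 UMI was 1.51 to 4.14 CPM in RT-like cells. CPM uses all UMIs of a class, whereas fold changes use TMM scaling. Shares have exact binomial intervals at 95%, which, like floors of 3 counts, cover counting error only. Of 31053 gene identifiers, 99.6% were found in GENCODE vM21, and promoters are those of RefSeq (GRCm38.p6).

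The members, the marker lists and the lists of related genes were chosen with earlier results of these data known. All 10 members were reported in every comparison of classes and of genotypes, and in the interaction the 6 that were tested. From each related list, naming was limited to the 3 called genes in each direction whose adjusted p was smallest, and for each member the most similar genes by correlation. Alternatives were DESeq2 1.42.0, RLE size factors, no filter on low counts, each library left out, the replicate number as a block or no library block, a limit of 10% mitochondrial UMIs, removal of Scrublet calls, clustering that kept the members, clustering without integration or at resolution 0.8, and thinning to 4000 UMIs or none. The RT-marker barcodes above the gene range were added after the data were seen. Immunostaining was not analysed here.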

Additional observations from a re-analysis of the deposited data

Results flagged for a closer look

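The barcodes outside the range of 1000 to 4500 genes entered no class. All 10 genes were screened below the range, above it and in the RT-marker barcodes, and 7 values had both *Sox17*-cKO libraries above both control libraries. Only that direction was listed. *Vim* lay the other way in RT-marker barcodes, at 608 and 808 CPM in control and 565 and 605 CPM in *Sox17*-cKO. An exact permutation test of 2 libraries against 2 cannot give such an order a two-sided p below 0.333. Its share over all genes was not computed. In RT-marker barcodes above the range, the ratio of the mean CPM of *Sox17*-cKO to control libraries was 2.79 for *Epcam*, 1.77 for *Krt8*, 2.04 for *Krt7*, 4.28 for *Krt19* and 3.22 for *Nes*. *Epcam* and *Krt8* rest on 1288 and 1723 UMIs, whereas *Krt7*, *Krt19* and *Nes* rest on 37, 37 and 66, and *Sox17*-cKO 1 gave only 10 of the 240 barcodes. *Krt19* and *Nes* stood at 16.8 and 28.7 CPM in that library and at 3.94 and 7.61 CPM in *Sox17*-cKO 2, and without *Sox17*-cKO 1 their log2 fold changes were 0.60 and 0.59. In the same barcodes the RT markers summed to 3772 and 4294 CPM in control and 5287 and 5249 CPM in *Sox17*-cKO, and the Sertoli markers to 2798 and 2550 against 4408 and 3948 CPM, and the part of either in these ratios was not tested. *Epcam*, *Krt8*, *Krt7* and *Nes* did not reach an adjusted p of 0.05 in edgeR's test of genotypes in these barcodes, and *Krt19* was not tested for low counts. With the replicate number as a block, *Epcam* (adjusted p = 0.00102) and *Krt8* (0.0178) were called by edgeR in the same barcodes. Over all barcodes of any cell type, the ratio for *Nes* was 1.36 below the range (6.89 and 8.17 CPM in control, 11.4 and 9.08 CPM in *Sox17*-cKO) and 1.28 above it (22.7 and 24.2 against 33.7 and 26.3 CPM). These mixtures hold different shares of cell types in each library, and the difference was not tested.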

How the results depend on the processing

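All comparisons rest on 4 pooled libraries. Between classes, 26 member results were called. Over 328 combinations with an alternative in which the member was tested, 325 kept direction and call, whatever the size of the difference. Combinations in which a called member failed the filter were not counted. An example is *Krt18* in SV Sertoli-like cells with the members kept in clustering. Without the library block, 3 of the 5 genes called in SV Sertoli-like cells were called, with *Vim* at 0.61 and *Cdh2* at 0.51 below the threshold of significance. With the members kept in clustering, *Vim* in SV Sertoli-like cells was -0.17, in a class of 1429 cells. Without integration no SV Sertoli-like class was found, so its comparisons were not run there. Of 377 combinations with uncalled results, 39 changed sign and 10 passed the threshold, some of the latter in fits with 1 library left in a genotype. The cause was not tested.

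In RT-like cells 1 member (*Epcam*) was called between genotypes without the filter on low counts and 1 with the replicate block. With the replicate block 2 were called in RT-marker barcodes above the range (*Epcam*, *Krt8*) and 3 with both sets summed (*Cdh2* too). The main fits between genotypes used no replicate block, since the study's methods describe none. The replicate numbers coincide with the Cell Ranger version, and 2 pairs cannot settle whether the libraries were paired. Deviations of the same number correlated at 0.33 to 0.58 in 4 classes, and the main fits leave such a shared deviation in their error. The block raised the genes called in RT-like cells from 9 to 264 and in Sertoli-like cells from 0 to 13. Leaving a library out left 1 library in a genotype, so calls from such fits are not given, here or in the interaction of genotype and class.

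Signs changed in results that were not called, given as log2 fold changes. When a library was left out, *Cdh2* in RT-like against germ-like cells ran from -0.045 to 0.34. Between genotypes the same ranges were -0.19 to 0.29 for *Cdh1* in RT-like cells, -0.28 to 0.38 for *Vim*, -0.028 to 0.97 for *Nes* and -0.17 to 0.57 for *Epcam* in SV Sertoli-like cells, -0.56 to 0.18 for *Vim* and -0.017 to 0.90 for *Epcam* in Sertoli-like cells, and in germ-like cells -0.35 to 0.53 for *Cdh1*, -0.55 to 0.55 for *Vim*, -0.078 to 0.40 for *Epcam*, -0.40 to 0.71 for *Nes*, -0.33 to 0.11 for *Cdh2* and -0.98 to 0.37 for *Cdh5*. In the interaction they were -2.41 to 0.12 for *Cdh1* and -0.75 to 1.31 for *Krt8*. Without the filter on low counts, *Cdh2* in RT-like against germ-like cells was -0.0089, and between genotypes *Cdh1* in RT-like cells was -0.025 and *Vim* in SV Sertoli-like cells -0.0071. With the replicate block, *Cdh1* was -0.0064 in RT-like and 0.014 in germ-like cells. Without integration, *Cdh1* in RT-like cells was -0.00041, *Nes* in Sertoli-like cells 0.13 and *Krt18* in the interaction 0.36. Under 10% mitochondrial UMIs, *Vim* and *Epcam* in SV Sertoli-like cells were -0.012 and -0.067, *Vim* and *Nes* in germ-like cells 0.081 and -0.11, and *Krt8* in the interaction -1.91. With the members kept in clustering, *Vim* between genotypes in SV Sertoli-like cells was -0.16 and *Krt8* in the interaction -0.28. *Cdh1* in germ-like cells was 0.0038 with DESeq2 and 0.090 at a resolution of 0.8.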
